A study of Rattus norvegicus with 12 samples.

Results

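The levels of 10 genes that mark macrophages and dendritic cells were followed in kidney graft cortex: Csf1r, Tyrobp, Cd14, Mrc1, Cd163, Itgax, Itgam, Cd68, Lyz2 and Aif1. Their probe sets, the groups of short probes that each measure a transcript, were those whose platform annotation gave one of these symbols alone, which gave 11 probe sets of 10 genes. The arrays hold 31042 probe sets that are not controls and name 14217 genes by a probe set of their own. Total RNA from the renal cortex of 12 male rat kidney grafts was labelled with biotin and hybridised to 12 Affymetrix 3′ expression arrays, 1 per graft. There were 6 ABCC2-/- grafts, replicates 3, 5, 9, 10, 11 and 14, which lack the transporter MRP2 (ABCC2), and 6 wild-type grafts, replicates 1, 4, 6, 7, 8 and 9. Every graft had been placed in a wild-type recipient, so that the genotypes differ in the graft and not in the host. Leukocytes of a transplanted kidney can come from the donor or from the recipient, and the arrays do not separate the 2 sources. The rat strain, the ages, the time after transplantation and any drug treatment are not given in the sources used here, nor is it stated whether the grafts came from separate donors. The comparison asks whether loss of MRP2 in the graft goes with another level of these genes in its cortex.

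Macrophages and dendritic cells are phagocytes of the innate immune system that lie between the tubules of the kidney, where they clear dying cells and debris, sense microbial products and present antigen to T cells. Some settle in the kidney early in life and renew themselves, others arrive from the blood as monocytes, and many of these depend on signals through the colony stimulating factor receptor CSF1R. In a kidney graft they are among the cells that take part in ischaemic injury, repair and rejection.

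Abcc2 was measured first as a check of the labels. Its signal lay between 0.0387 and 0.213 on the ABCC2-/- arrays, against 0.787 to 0.987 on the wild-type arrays. The groups did not overlap, and the log2 difference was -2.69 (SE 0.22, limma adjusted p = 8.35e-06). Signals are the deposited intensities, which are relative to each array's own scale, and all differences below are on a log2 scale as ABCC2-/- minus wild type with values under 0.0694 raised to that floor. Of 18625 probe sets bright enough to test, 4 passed an adjusted p of 0.05 in limma, all lower in ABCC2-/- grafts, which is 0.0215% of those tested.

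None of the macrophage and dendritic cell genes passed that threshold. Of the 10 genes, 8 were tested, each by 1 probe set, and 0 of 8 were called by limma against 0.0215% of all probe sets. At an unadjusted p under 0.05 there were 2, Itgax with a negative and Mrc1 with a positive difference, beside 7.98% of all tested probe sets. Differences were positive for 6 genes (Csf1r, Tyrobp, Mrc1, Cd68, Lyz2 and Aif1) and negative for Itgax and Cd14, with a median of 0.14, against -0.023 over all tested probe sets, of which 45.4% were positive. None of the 8 separated the genotypes without overlap, which 0.435% of all tested probe sets did. In cortex measured as bulk tissue, fewer cells of a type and less RNA of a gene per cell cannot be told apart.

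The arrays also fell into 2 sets of 6 that cross the genotypes, and Cd68, Lyz2 and Aif1 separated these sets without overlap. The sets were taken at the largest gap in the signal of the middle Gapdh control probe set, which was 41.4 to 54.8 in array set 2 (ABCC2-/- replicates 3, 10 and 14 and wild-type replicates 4, 7 and 8) and 32.9 to 36.1 in array set 1 (the other 3 of each genotype). The same split appeared in the first principal component of all other probe sets after the genotype means were taken off, which held 32.6% of the variance. The Gapdh 3′ to 5′ ratio, a measure that goes up as RNA is broken or copied incompletely, was 1.28 to 1.36 on the 3 ABCC2-/- arrays of set 2 and 1.64 to 1.93 on the other 9. The labels give no name for the sets. In the listed order of the samples array set 1 holds the first 3 grafts of each genotype and array set 2 the last 3. Bacterial poly-A controls, RNAs added before labelling, gave higher signals on every ABCC2-/- array than on any wild-type array for 24 of 24 probe sets, with a median fold of 6.63, so that the amount of these controls and the genotype cannot be told apart. For the 18 probe sets of hybridisation controls, added later, 0 separated the genotypes.

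**Figure D1:**
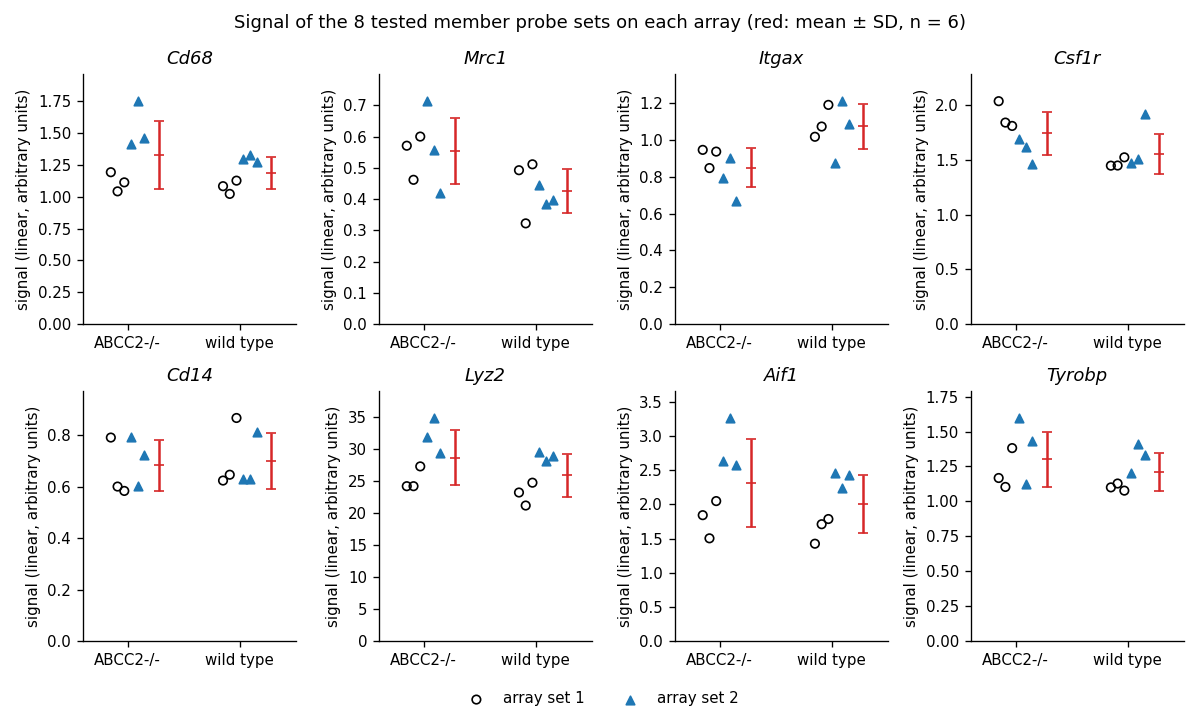
Deposited signal of the 8 tested genes on each array, with ABCC2-/- grafts left of wild-type grafts in each panel, points marked by array set, and bars at the mean with the SD. ABCC2-/- and wild-type points overlap in every panel, and the points of array set 2 lie above those of array set 1 within each genotype for Cd68, Lyz2 and Aif1.

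Promoter sequences of the members were read from RefSeq in the GRCr8 build, which held one for 8 of the 10 genes, all except Aif1 and Tyrobp. Each window runs from 250 bases before the gene's start to 50 after it. It was searched on both strands for GAGGAA, the core of sites bound by PU.1, a factor that myeloid cells need for their development, and for TTGCNNAA, a form of the C/EBP site. GAGGAA was found in 6 of 8 member promoters, all except Itgax and Cd163, and in 27.6% of the 33469 promoters of the table. TTGCNNAA was found in 2 of 8, those of Itgam and Lyz2, and in 10.6% of all. A match is a run of letters and not a shown site. The windows of 4 genes follow, Cd68 and Lyz2 since they separated the array sets, and Mrc1 and Itgax since they had the lowest p-values by genotype, in lower case with GAGGAA or its reverse complement in capitals. Cd68 lies at chr10:54882392-54882691 on the minus strand, Lyz2 at chr7:54797962-54798261 on the minus strand, Mrc1 at chr17:82157475-82157774 on the plus strand and Itgax at chr1:192149799-192150098 on the plus strand, each printed 5′ to 3′ on the gene's strand.
Cd68: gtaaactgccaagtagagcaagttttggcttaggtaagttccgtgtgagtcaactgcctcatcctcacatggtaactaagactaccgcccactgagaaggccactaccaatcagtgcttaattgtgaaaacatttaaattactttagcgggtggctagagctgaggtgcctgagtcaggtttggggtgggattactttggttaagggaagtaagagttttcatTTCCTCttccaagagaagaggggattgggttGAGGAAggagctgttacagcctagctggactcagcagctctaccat
Lyz2: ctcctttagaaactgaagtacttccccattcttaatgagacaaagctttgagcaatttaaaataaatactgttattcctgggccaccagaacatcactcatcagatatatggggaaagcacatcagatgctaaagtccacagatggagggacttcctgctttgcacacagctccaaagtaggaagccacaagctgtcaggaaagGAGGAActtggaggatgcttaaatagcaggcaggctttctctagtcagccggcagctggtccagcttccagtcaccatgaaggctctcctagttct
Mrc1: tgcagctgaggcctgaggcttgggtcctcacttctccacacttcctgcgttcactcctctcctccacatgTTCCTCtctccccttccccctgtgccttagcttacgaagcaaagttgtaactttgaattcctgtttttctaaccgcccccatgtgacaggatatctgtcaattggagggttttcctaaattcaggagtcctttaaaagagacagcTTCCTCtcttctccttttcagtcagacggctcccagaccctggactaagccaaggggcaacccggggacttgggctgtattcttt
Itgax: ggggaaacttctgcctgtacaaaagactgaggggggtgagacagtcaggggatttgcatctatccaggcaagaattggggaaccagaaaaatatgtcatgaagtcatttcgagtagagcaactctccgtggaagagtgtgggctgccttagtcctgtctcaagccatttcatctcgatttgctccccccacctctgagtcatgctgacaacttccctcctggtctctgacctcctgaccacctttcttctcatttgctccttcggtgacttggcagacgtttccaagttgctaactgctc
The Cd68 window holds a match on each strand, at bases 224 to 229 and 255 to 260 of the window. Lyz2 holds 1 match, at bases 205 to 210 on the gene's strand. Mrc1 holds 2, both on the opposite strand, at bases 71 to 76 and 216 to 221. In Itgax there is no match to these letters in this window.

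CSF1R is the receptor for the growth factors CSF1 and IL-34 and is needed for the survival of most tissue macrophages. Csf1r had a lowest, median and highest signal of 1.46, 1.75 and 2.03 in ABCC2-/- grafts, against 1.45, 1.49 and 1.92 in wild-type grafts. Of the 6 ABCC2-/- arrays 5 lay above the wild-type mean, but wild-type replicate 8, at 1.92, lay above all of them except ABCC2-/- replicate 5. The mean was 1.74 ± 0.199 in ABCC2-/- grafts and 1.55 ± 0.181 in wild-type grafts (SD, n = 6 each), a log2 difference of 0.16 (SE 0.10, 95% interval -0.050 to 0.38, adjusted p = 0.639). The array sets did not give the same value. In array set 1 Csf1r was 1.81, 1.84 and 2.03 in ABCC2-/- grafts, against 1.45, 1.45 and 1.52 in wild-type grafts, with a log2 difference of 0.36 (interval 0.16 to 0.57, adjusted p = 0.244). In array set 2 it was 1.46, 1.61 and 1.69 in ABCC2-/- grafts, against 1.47, 1.51 and 1.92 in wild-type grafts, with a log2 difference of -0.032 (interval -0.31 to 0.25, adjusted p = 0.906). The groups stood apart in the first set and overlapped in the second, and the difference between the sets was not tested. Csf1r was not alone in this, since Itgax also stood apart by genotype in array set 1, and Cd68 and Aif1 in array set 2. Each such comparison sets 3 arrays against 3, and the share of all probe sets that separate in this way was not counted.

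Among 7 tested growth factors and receptors of the mononuclear phagocyte line, 0 passed in limma and 0 had an unadjusted p under 0.05. There were 5 positive and 2 negative differences, with a median of 0.18 against -0.023 over all tested probe sets. The lowest p-values belonged to Cx3cr1, the fractalkine receptor of monocytes and resident macrophages, at 0.61 (SE 0.31, adjusted p = 0.628), and to Csf2rb, the shared beta chain of the GM-CSF and IL-3 receptors, at 0.28 (SE 0.14, adjusted p = 0.628). Cx3cr1 was dim, with a mean signal of 0.243 in ABCC2-/- grafts and 0.163 in wild-type grafts and 1 array below the floor. Leukocyte transcription factors were divided 4 to 4 among 8 tested, with a median of -0.0048, 0 passed in limma and 1 at an unadjusted p under 0.05. Cebpa, a C/EBP factor of myeloid and of epithelial cells, had -0.39 (SE 0.13, unadjusted p = 0.00786, adjusted p = 0.606), and Irf8, which directs monocyte and dendritic cell development, had -0.17 (SE 0.13, adjusted p = 0.677).

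TYROBP, also called DAP12, is a membrane adaptor that passes signals from receptors such as TREM2 to the kinase SYK in myeloid and natural killer cells. Tyrobp had a lowest, median and highest signal of 1.10, 1.27 and 1.60 in ABCC2-/- grafts, against 1.08, 1.17 and 1.41 in wild-type grafts. The groups overlapped over most of their range, and 2 ABCC2-/- arrays lay above every wild-type array. The log2 difference was 0.10 (SE 0.11, interval -0.14 to 0.34, adjusted p = 0.759). Of 12 tested partners of immunoreceptor adaptors, 4 differences were positive and 8 negative (median -0.064), 0 passed in limma and 1 had an unadjusted p under 0.05. That gene was Vav1, an exchange factor of leukocyte signalling, at -0.62 (SE 0.23, adjusted p = 0.606), followed by the Src family kinase gene Fgr at -0.22 (SE 0.14, adjusted p = 0.639). Vav1 was dim, with a mean signal of 0.16 in ABCC2-/- grafts and 0.24 in wild-type grafts.

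CD14 binds bacterial lipopolysaccharide and hands it to Toll-like receptor 4. Cd14 had a lowest, median and highest signal of 0.584, 0.664 and 0.795 in ABCC2-/- grafts, against 0.624, 0.639 and 0.867 in wild-type grafts. Each genotype held low and high arrays, and the groups overlapped, with 3 ABCC2-/- arrays below every wild-type array. The log2 difference was -0.038 (SE 0.13, interval -0.31 to 0.23, adjusted p = 0.923). In the pathway of CD14 and the Toll-like receptors 4 of 15 tested genes lay above 0 and 11 below it (median -0.11), and 0 passed in limma with 1 at an unadjusted p under 0.05. This was Irak3, an inhibitor of Toll-like receptor signalling, at -0.82 (SE 0.38, adjusted p = 0.614), and next in order came the adaptor gene Myd88 at -0.23 (SE 0.14, adjusted p = 0.638). Irak3 was dim, with a mean signal of 0.203 in ABCC2-/- grafts and 0.329 in wild-type grafts and 1 array below the floor. Its difference of array set 2 minus array set 1 was -0.95.

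MRC1, the mannose receptor CD206, takes up glycoproteins and is used as a marker of alternatively activated and tissue resident macrophages. Mrc1 had a lowest, median and highest signal of 0.420, 0.564 and 0.713 in ABCC2-/- grafts, against 0.323, 0.421 and 0.511 in wild-type grafts. Of the 6 ABCC2-/- arrays 4 lay above every wild-type array, while ABCC2-/- replicates 9 and 14 lay within the wild-type range. The mean was 0.554 ± 0.104 in ABCC2-/- grafts and 0.426 ± 0.0710 in wild-type grafts (SD, n = 6 each), which is 1.30-fold higher and a log2 difference of 0.38 (SE 0.15, interval 0.053 to 0.70, unadjusted p = 0.0254). It did not pass after adjustment over all probe sets (adjusted p = 0.612, limma). The difference was 0.32 in array set 1 and 0.43 in array set 2.

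CD163 is the scavenger receptor for haemoglobin bound to haptoglobin. Cd163 lay below the floor of 0.0694 on 6 of 6 ABCC2-/- arrays, at 0.01 to 0.0662, and on 5 of 6 wild-type arrays, where replicate 1 reached 0.0777. At this level the probe set gave no measure of the gene, and no fold is given. Genes of haemoglobin and haem clearance had 4 positive and 2 negative differences among 6 tested, with a median of 0.073, 0 passed in limma and 1 at an unadjusted p under 0.05. Hmox1, the inducible haem oxygenase, which macrophages and tubule cells both make, had 0.97 (SE 0.21, interval 0.52 to 1.42, unadjusted p = 3.00e-04, adjusted p = 0.465), with a mean signal of 0.754 in ABCC2-/- grafts and 0.382 in wild-type grafts. Slc48a1, a haem transporter of the lysosome, had 0.20 (SE 0.096, adjusted p = 0.624).

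Among 13 tested genes of resident and alternatively activated macrophages, 8 differences were positive and 5 negative, with a median of 0.11, and 0 passed in limma with 0 at an unadjusted p under 0.05. Tgfb1, a cytokine of repair and fibrosis, had -0.29 (SE 0.15, adjusted p = 0.628), and Axl, a receptor for apoptotic cells, had -0.15 (SE 0.11, adjusted p = 0.649). The C1q subunit genes, which tissue macrophages express, had 0.11 for C1qa, 0.26 for C1qb and 0.11 for C1qc, with adjusted p-values of 0.770, 0.672 and 0.793.

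ITGAX, the integrin CD11c, is a marker of dendritic cells and of many renal macrophages, and pairs with the beta chain ITGB2. Itgax had a lowest, median and highest signal of 0.668, 0.873 and 0.945 in ABCC2-/- grafts, against 0.875, 1.08 and 1.21 in wild-type grafts. All 6 ABCC2-/- arrays lay below the wild-type mean, and the groups overlapped through wild-type replicate 4 alone, at 0.875. The mean was 0.848 ± 0.105 in ABCC2-/- grafts and 1.07 ± 0.122 in wild-type grafts (SD, n = 6 each), which is 1.27-fold lower and a log2 difference of -0.34 (SE 0.11, interval -0.58 to -0.10, unadjusted p = 0.00791). Adjusted over all probe sets it did not pass (adjusted p = 0.606, limma). The difference was -0.26 in array set 1 and -0.42 in array set 2. With values below 1 set to 1, which raises 6 of 6 ABCC2-/- arrays and 1 wild-type array, it was -0.13.

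ITGAM, the integrin CD11b of monocytes, macrophages and neutrophils, has its gene beside Itgax on rat chromosome 1, with 0 coding genes between them in the GRCr8 gene order. Abcc2 lies on the same chromosome, with 812 coding genes between it and Itgax. Itgam was below the floor on 6 of 6 ABCC2-/- arrays, at 0.0131 to 0.0236, and on 5 of 6 wild-type arrays, where replicate 1 reached 0.0782. No fold is given for it. Among 8 tested integrins and ligands 3 differences were positive and 5 negative (median -0.034), and 0 passed in limma with 1 at an unadjusted p under 0.05. Itgb2, the partner chain of both integrins, had -0.065 (adjusted p = 0.840), Cytip, which binds the regulator cytohesin in leukocytes, had -0.34 (SE 0.15, adjusted p = 0.614), and the adhesion ligand gene Icam2 had 0.15 (SE 0.093, adjusted p = 0.638).

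**Figure D2:**
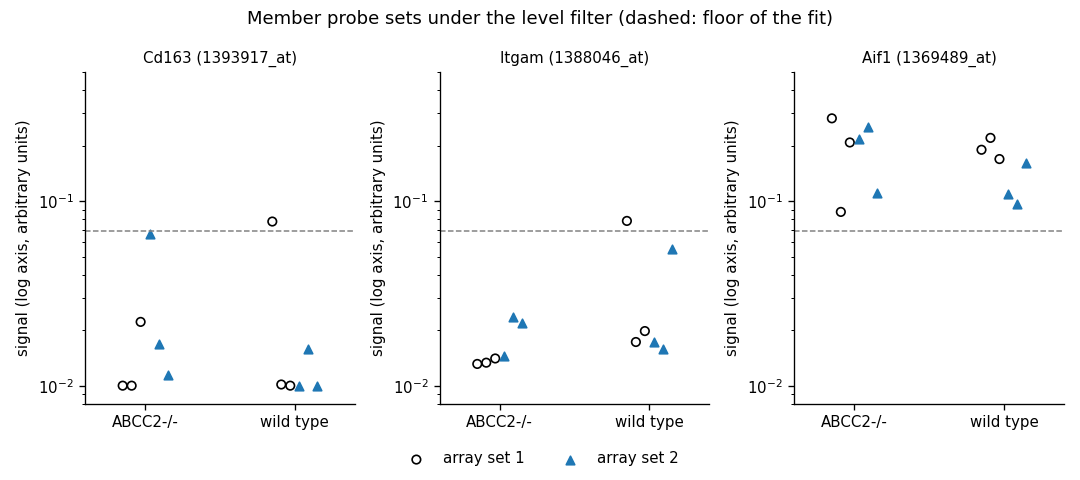
Deposited signal on a log10 axis of the 3 probe sets that were too dim to test, Cd163, Itgam and the second probe set of Aif1, with ABCC2-/- grafts left of wild-type grafts and the floor of 0.0694 as a line. Cd163 and Itgam lie under the floor on all arrays except wild-type replicate 1, and the second Aif1 probe set lies above it on all 12.

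CD68 is a glycoprotein of late endosomes and lysosomes and the most used tissue marker of macrophages. Cd68 had a lowest, median and highest signal of 1.04, 1.30 and 1.75 in ABCC2-/- grafts, against 1.02, 1.20 and 1.32 in wild-type grafts. All 3 ABCC2-/- arrays of array set 2 lay above every wild-type array, and the other 3 lay within the wild-type range. The log2 difference was 0.15 (SE 0.13, interval -0.12 to 0.42, adjusted p = 0.693). With the Gapdh 3′ to 5′ ratio in the fit it was -0.022, and with the ratio and the array set together 0.092 (adjusted p = 0.791). Without ABCC2-/- replicate 10 it was 0.063.

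LYZ2 is a lysozyme of macrophages and granulocytes that breaks bacterial cell walls. Lyz2 had a lowest, median and highest signal of 24.2, 28.3 and 34.9 in ABCC2-/- grafts, against 21.2, 26.4 and 29.5 in wild-type grafts. The groups overlapped, and 2 ABCC2-/- arrays lay above every wild-type array. The log2 difference was 0.14 (SE 0.11, interval -0.089 to 0.37, adjusted p = 0.670). It was 0.018 with the Gapdh ratio in the fit and 0.15 with the ratio and the array set together (interval 0.0013 to 0.31, adjusted p = 0.458).

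AIF1, also called IBA1, is a calcium binding protein that bundles actin in the ruffles of macrophages and microglia. Aif1 was measured by 2 probe sets. The brighter, whose suffix _s_at is the maker's sign for probes shared by several transcripts, had a lowest, median and highest signal of 1.50, 2.31 and 3.27 in ABCC2-/- grafts, against 1.43, 2.02 and 2.46 in wild-type grafts. Its log2 difference was 0.19 (SE 0.18, interval -0.19 to 0.56, adjusted p = 0.722). It was -0.040 with the Gapdh ratio in the fit and 0.20 with the ratio and the array set together (adjusted p = 0.562). The dimmer had a lowest, median and highest signal of 0.0876, 0.213 and 0.282 in ABCC2-/- grafts, against 0.0961, 0.166 and 0.221 in wild-type grafts. The genotypes overlapped on both probe sets, and without the filter on dim probe sets the dimmer one had 0.23 (interval -0.49 to 0.94, adjusted p = 0.843).

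**Figure D3:**
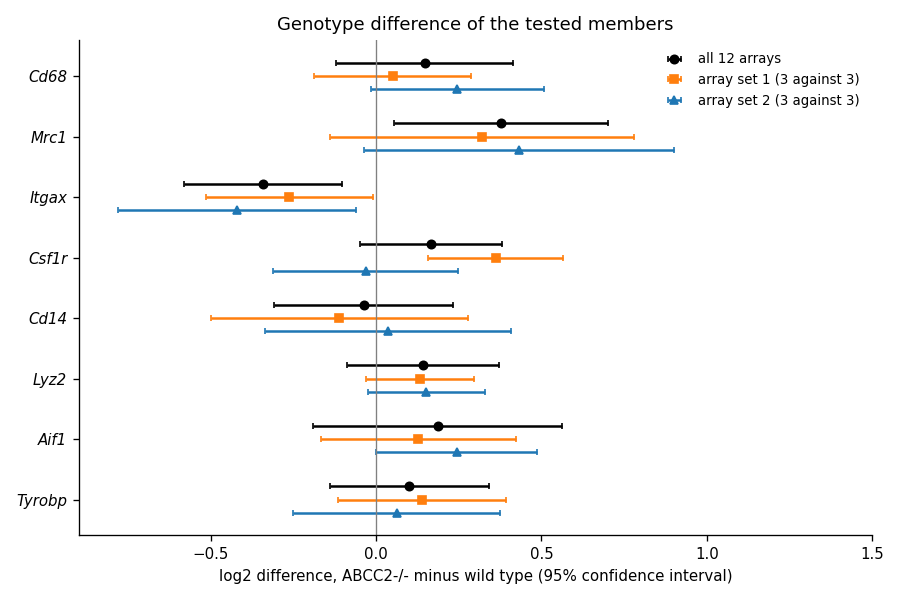
Log2 difference, ABCC2-/- minus wild type, of the 8 tested genes with 95% intervals for all arrays and for each array set alone. The intervals of Itgax and Mrc1 over all arrays leave out 0, and those of the other 6 genes hold it.

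Genes of the phagosome and lysosome had 8 positive and 13 negative differences among 21 tested, with a median of -0.063, and 0 passed in limma with 1 at an unadjusted p under 0.05. Lipa, the lysosomal acid lipase, had -0.26 (SE 0.11, adjusted p = 0.612), and Psap, which yields the saposins of glycolipid breakdown, had -0.28 (SE 0.14, adjusted p = 0.627). Both are also expressed by tubule cells. Of 16 tested genes of dendritic cells and antigen presentation, 12 differences were positive and 4 negative (median 0.083), with 0 passed in limma and 0 at an unadjusted p under 0.05. The class II peptide loading gene RT1-DMa had 0.23 (SE 0.14, adjusted p = 0.639) and the maturation marker Cd83 had -0.15 (SE 0.12, adjusted p = 0.683).

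Inflammatory cytokines and effectors had 8 positive and 3 negative differences among 11 tested, with a median of 0.12, 0 passed in limma and 0 at an unadjusted p under 0.05. Spp1, osteopontin, had 0.21 (SE 0.16, adjusted p = 0.660), and Mif, macrophage migration inhibitory factor, had 0.13 (SE 0.10, adjusted p = 0.670). For partners of actin and the lamellipodium the division was 3 positive and 7 negative of 10 tested (median -0.024), with 0 passed in limma and 0 at an unadjusted p under 0.05. Arpc3, a subunit of the Arp2/3 complex, had 0.11 (SE 0.086, adjusted p = 0.684), and Lcp1, the leukocyte plastin, had -0.11 (SE 0.093, adjusted p = 0.700).

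The genes that separated the array sets were Aif1, Cd68 and Lyz2. Since the sets were defined from the data, their differences are a description with no test. Aif1 was 2.24 to 3.27 on the arrays of set 2 and 1.43 to 2.05 on those of set 1, a mean log2 difference of 0.60, or 1.51-fold. Cd68 was 1.27 to 1.75 in set 2 and 1.02 to 1.19 in set 1, a log2 difference of 0.36, or 1.29-fold. Lyz2 was 28.1 to 34.9 in set 2 and 21.2 to 27.3 in set 1, a log2 difference of 0.33, or 1.26-fold. Each of the 3 was higher in set 2 without overlap, and so within each genotype too, a pattern that 4.93% of all tested probe sets had over the 12 arrays. The reverse, lower in set 2 without overlap, held for 0 of the 8 genes and 7.15% of all tested probe sets, so that 3 of 8 genes stand beside 12.1% in either direction. For Aif1 the set difference was 0.66 in ABCC2-/- grafts and 0.54 in wild-type grafts, for Cd68 0.46 in ABCC2-/- grafts and 0.27 in wild-type grafts, and for Lyz2 0.34 in ABCC2-/- grafts and 0.32 in wild-type grafts.

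The other 5 genes overlapped between the sets. Tyrobp had a set 2 minus set 1 difference of 0.21, Cd14 of 0.033, Mrc1 of -0.029, Csf1r of -0.058 and Itgax of -0.14. For Csf1r the set difference was -0.26 within ABCC2-/- grafts and 0.14 within wild-type grafts. For Tyrobp it was 0.18 within ABCC2-/- grafts and 0.25 within wild-type grafts. Each of these values compares 3 arrays with 3. Over the 8 genes 5 were higher and 3 lower in set 2, with a median of 0.12, against -0.062 over all tested probe sets. The second probe set of Aif1 was not higher in set 2, with a mean signal of 0.158 in set 2 and 0.193 in set 1. Adgre1, the F4/80 antigen of macrophages, was lower in set 2 without overlap, at -0.68, while Cd74, the class II invariant chain, was higher without overlap, at 0.46. C1qa, C1qb and C1qc had set differences of 0.31, 0.56 and 0.35 with overlap.

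**Figure D4:**
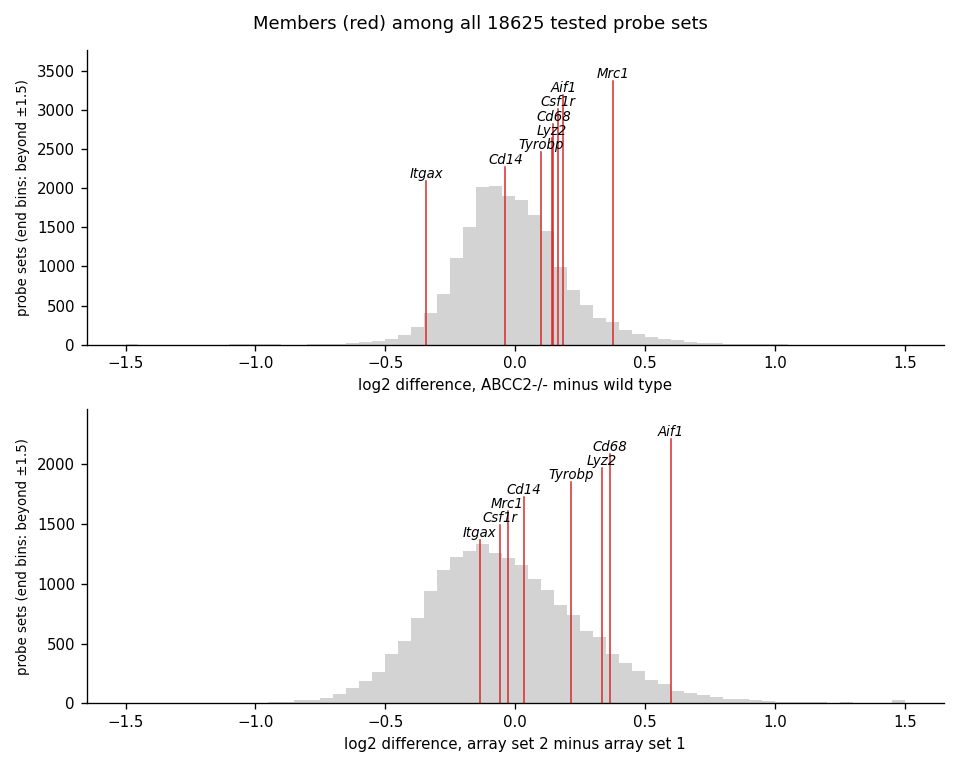
Histograms of the log2 differences of all 18625 tested probe sets, ABCC2-/- minus wild type above and array set 2 minus array set 1 below, with the 8 tested genes as red lines. Mrc1 at 0.38 and Itgax at -0.34 lie farthest from 0 by genotype, and Aif1 at 0.60, Cd68 at 0.36 and Lyz2 at 0.33 by array set.

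With the array set as a block in the limma fit the log2 differences of the 8 genes stayed as they were, since each set holds 3 grafts of each genotype, and their errors became smaller. Over all tested probe sets 112 then passed (0.601%), and 0 of the 8 genes did. The lowest adjusted p-values among them were 0.107 for Itgax, 0.189 for Lyz2 and 0.191 for Mrc1. With the Gapdh ratio and the array set together in the fit 3 probe sets passed, and 0 of the 8 genes did. In array set 1 alone 4 probe sets passed (0.0215%), in array set 2 alone 1190 (6.39%), and 0 of the 8 genes in either. In array set 2 the Gapdh ratio also separated the genotypes, at 1.28 to 1.36 in ABCC2-/- grafts and 1.64 to 1.88 in wild-type grafts. What part the ratio has in these counts was not tested.

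The 8 genes were then set against each other over the 12 arrays. After the means of genotype and array set were taken off, 23 of the 28 pairs had a positive Pearson r, with a median of 0.22 and a range of -0.57 to 0.70. With arrays exchanged only within a genotype and set, 1296 arrangements are possible and the smallest p is 0.000772. One pair, Csf1r and Cd14, had an unadjusted exact two-sided p under 0.05 (r = 0.68, exact permutation p = 0.0270, adjusted over 28 pairs 0.637). Its Spearman rho was 0.48 (exact permutation p = 0.124), and r without the 2 arrays farthest from the median was 0.48. No pair passed after adjustment. With only the genotype means taken off 3 pairs passed, those among Cd68, Lyz2 and Aif1. Since the arrays fall into sets their pooled r is not given, and with the set means off as well they had r of 0.56 to 0.61 with exact permutation p-values of 0.112 to 0.188.

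Of 10631 genes ranked by how closely they followed the mean profile of the 8 genes over the 12 arrays with genotype means off, the nearest 10 outside the list were Atad3a, Polr1h, Tatdn3, Pycard, C7h22orf23, Med13l, Gucy1a1, C1qb, C1qc and Rgs5. Their Pearson r was 0.84 to 0.90, and 0.70 to 0.86 when the set means were also off. C1qb and C1qc were the 2 of these 10 in a gene list, that of resident macrophage genes. Ranked with the set means off as well, the nearest 10 were led by Entpd3, Bcl11b, Maml1, Ltbr and Kcns3 (r 0.87 to 0.97 over the 10), of which 0 were in a list and 0 were shared with the first ranking. The profile of the first ranking holds the set differences of Aif1, Cd68 and Lyz2, and both rankings are a description with no test.

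Markers of other cell types were read beside these genes, and 0 of them passed by genotype in limma. At an unadjusted p under 0.05 there were 0 of 10 tested pan-leukocyte, 0 of 2 neutrophil and 0 of 11 T and NK cell genes. Past it were 1 of 2 B and plasma cell genes, Xbp1, and 2 of 10 proximal tubule genes. So were 1 of 8 glomerular or endothelial, 2 of 8 distal nephron and 1 of 5 blood genes. Slc4a1 was counted in both the distal nephron and the blood list. Of all tested probe sets 7.98% had such a p. The summed signal of 12 pan-leukocyte genes was 17.7 to 22.9 in ABCC2-/- grafts and 18.4 to 21.9 in wild-type grafts, and 10 tested genes had a median difference of -0.024. In detail, Arhgdib had 0.13 and Cd37 had -0.23 (adjusted p = 0.668 and 0.711). For T and NK cells, 18 genes summed to 3.40 to 4.98 in ABCC2-/- grafts and 3.88 to 4.54 in wild-type grafts, and 3 of 11 tested were positive and 8 negative, with Gzmk at 0.28 and Cd247 at -0.34 (adjusted p = 0.628 and 0.634).

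Neutrophil genes can share markers with macrophages, Lyz2 and Itgam among them. On these arrays 9 of them summed to 1.04 to 3.07 in ABCC2-/- grafts and 0.972 to 1.36 in wild-type grafts. Of the 9 only S100a9 and Lcn2 were bright enough to test. S100a9 had the largest mean signal, 0.802 in ABCC2-/- grafts and 0.405 in wild-type grafts. Both that were tested had positive differences, S100a9 at 0.56 (SE 0.44, adjusted p = 0.677) and Lcn2 at 0.34 (SE 0.27, adjusted p = 0.675), and Cxcr2 was below the floor on 11 of 12 arrays. Of the B and plasma cell genes 2 were tested, Xbp1 at -0.25 and Jchain at -0.12 (adjusted p = 0.614 and 0.875). The others on the arrays, Cd79b, Ms4a1, Blk, Cr2 and Mzb1, were too dim to test. No mast cell gene was bright enough to test, and Tpsab1, Mcpt1 and Cma1 were below the floor on all arrays. The part of these cell types in the differences above was not tested.

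Kidney and blood markers varied over the same arrays. Proximal tubule genes summed to 378 to 433 in ABCC2-/- grafts and 376 to 495 in wild-type grafts, and 3 of 10 tested were positive and 7 negative. The glucose transporter gene Slc5a2 had -0.38 and the endocytic receptor gene Cubn -0.22 (adjusted p = 0.606 and 0.623). Among glomerular and endothelial genes 1 of 8 was positive, with the podocyte gene Nphs1 at -0.24 and the angiopoietin receptor gene Tek at -0.18 (adjusted p = 0.614 and 0.628), and among distal nephron genes 2 of 8 were positive, with Slc4a1 at -0.41 and Slc12a3 at -0.40 (adjusted p = 0.606 and 0.612). Blood genes summed to 12.1 to 48.7 in ABCC2-/- grafts and 21.7 to 55.6 in wild-type grafts, with Slc4a1, which red cells share with the distal nephron, and Hba-a3 at -0.30 (adjusted p = 0.708) lowest in p among 5 tested.

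**Figure D5:**
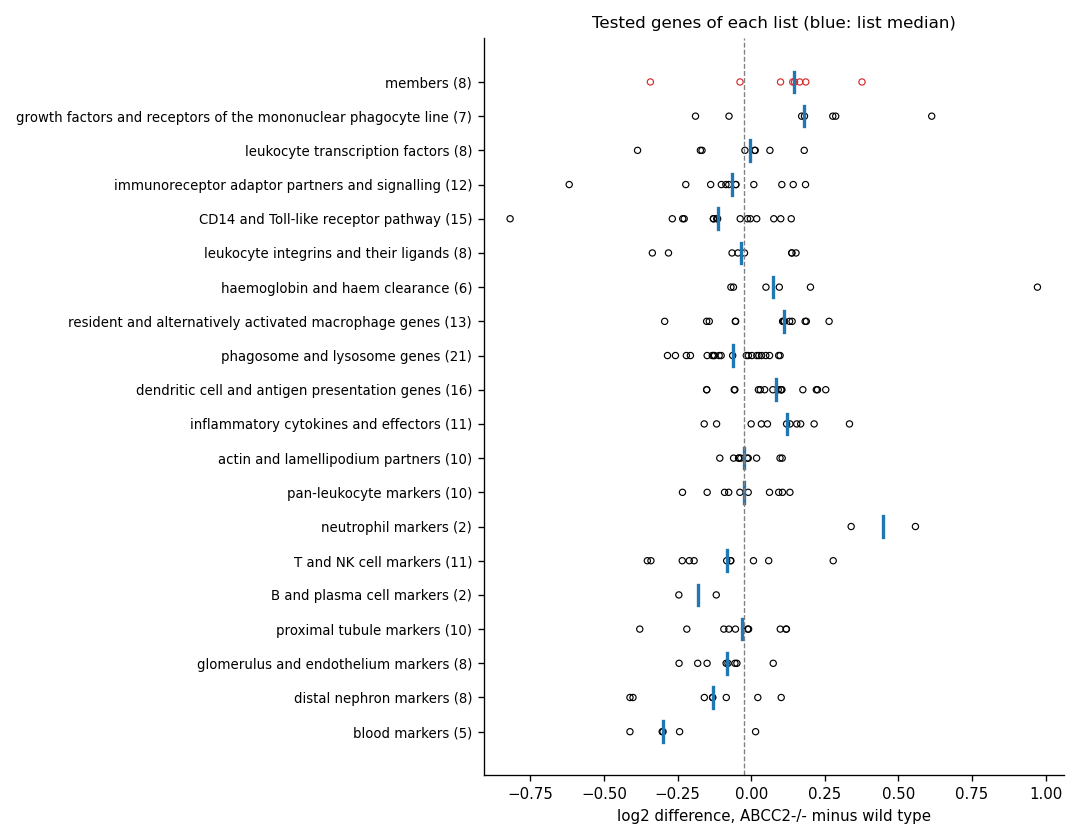
Log2 differences, ABCC2-/- minus wild type, of every tested gene in the 20 lists with a tested gene, 1 row per list and 1 point per gene, with the list median as a bar and the median of all tested probe sets, -0.023, as a dashed line. No gene in these lists passed an adjusted p of 0.05, and the list medians lie between -0.30 and 0.45.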

How the data were processed

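Renal cortex RNA of 12 grafts was measured on 1 array each, and titles gave the groups. The intensity values deposited by the authors, linear signals per probe set, came from MAS5 and GCOS per the submitters' processing notes, without versions. The lowest deposited intensity was 0.01, which 3.56% of values held. No source used here gives the scaling of the arrays.

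Control probe sets (57) were left out. Values under the pooled 20th percentile, 0.0694, were raised to it before log2, which understates the change of dim genes. Probe sets were tested where their average log2 signal reached the 40th percentile, which left 18625. Graft genotype was the sole factor in limma 3.58.1 under R 4.3.3 (lmFit, eBayes with trend), with Benjamini-Hochberg adjustment over all tested probe sets and a threshold of 0.05. The fit was first tested on simulated data. Each p-value rests on the spread among 12 grafts, whose number limits the precision.

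By the platform annotation 20832 probe sets had 1 symbol, 436 had more than 1 and stayed unnamed, and 9780 were not listed. For 20764 probe sets the Entrez number was found in the GRCr8 gene table, whose symbol was then used. The brightest probe set stood for a gene. The members and gene lists were chosen with earlier results of these data known. Every member is named. From each list the genes past the threshold are named, or else the 2 tested genes with the lowest p. The 10 other genes most like the members' mean profile are named, and Abcc2 as the check. Itgb2, Adgre1, Cd74, C1qa, Cxcr2 and the genes of the second likeness ranking were picked with their values in view. The array sets, and the correlations with set means taken off, were defined after seeing the data. Alternatives changed the floor, filter, normalization, variance model, array weights, array set, Gapdh ratio and the arrays included.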

Additional observations from a re-analysis of the deposited data

Results flagged for a closer look

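Csf1r in wild-type graft replicate 8 stood apart from the other wild-type grafts, at a signal of 1.92 where the group's median was 1.49. On the log2 scale its gap to the nearest array was 0.818 of the group's range, above the critical value of 0.625 for 6 samples. This was 1 flag among 16 groups examined, and chance flags about 1 in 20. Without that array the log2 difference of Csf1r was 0.23 (adjusted p = 0.566), against 0.16 with it. The bacterial poly-A controls, which no comparison of genes uses, were a median of 6.63-fold brighter on the ABCC2-/- arrays, with array medians of 0.763 to 1.28 in ABCC2-/- grafts and 0.127 to 0.185 in wild-type grafts, and a fold of 4.03 to 9.40 over the 24 probe sets.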

How the results depend on the processing

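In each of 25 settings 0 of the member genes tested there passed the threshold; Mrc1 gave no value with a filter at the 60th percentile or with values below 1 set to 1, and Cd14 none with the second of these. Of 198 member values under an alternative, 191 kept their direction. Part of these 198 could not change. The lower floor, both changes of the filter, the variance model and the array set as a block left the difference of each member probe set tested there as it was. With values below 1 set to 1 the same held for Cd68, Csf1r, Lyz2, Aif1 and Tyrobp. The 7 that reversed were Cd68 (-0.022) and Aif1 (-0.040) with the Gapdh ratio as a covariate, Csf1r (-0.032) and Cd14 (0.036) in array set 2 alone, and Cd14 without wild-type replicate 9 (0.026), wild-type replicate 8 (0.0069) or ABCC2-/- replicate 11 (0.0049). The cause was not tested. The median over the members was 0.14 and became -0.0021 with the Gapdh ratio as a covariate, where Csf1r was 0.24. With the ratio and the array set together it was 0.15, where Cd68 was 0.092, Aif1 0.20 and Csf1r 0.28. This median over the members was 0.088 when each array was centred on its own median signal and 0.16 with quantile normalization. It was 0.079 to 0.17 when each array was left out in turn, when Itgax was -0.40 to -0.28, Mrc1 0.30 to 0.45, Csf1r 0.12 to 0.23, Cd68 0.063 to 0.21, Lyz2 0.082 to 0.19, Aif1 0.077 to 0.30, Tyrobp 0.038 to 0.15 and Cd14 -0.084 to 0.026. Values moved by over 1.5 times without ABCC2-/- replicate 10 (Cd68 0.063, Lyz2 0.082, Aif1 0.077), ABCC2-/- replicate 3 (Tyrobp 0.038), ABCC2-/- replicate 9 (Aif1 0.30), wild-type replicate 6 (Lyz2 0.085) and wild-type replicate 1 (Aif1 0.092), beside those of Cd14. The count of probe sets called was 4, and 3 to 5 without 1 array. It was 2 with values below 1 set to 1, where 7999 constant probe sets were left out, and 2 with a filter at the 60th percentile. It was 112 (38 higher in ABCC2-/- grafts) with the array set as a block and 1190 (686 higher) in array set 2 alone. With the Gapdh ratio and the array set together it was 3 (0 higher). No paired analysis was possible because the genotypes share only 1 replicate number, 9. Signals near the floor limit what Cd163 and Itgam can show.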
